A study of Mus musculus with 6 samples.

Results

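Histones are the proteins around which DNA is wound, and this report follows their mRNAs in the jejunal epithelium of mice that lost Hdac1 and Hdac2. The histone genes were taken by symbol from the deposited gene table: every gene whose symbol starts with Hist1h to Hist4h, H2af or H3f3, with H1f0 and H1fx. That gave 61 of the 19616 genes in the table, 47 with the symbols of the replication-dependent histone clusters and 14 variant genes. Among the 47, Hist1h2al is listed by GENCODE as a processed pseudogene, at chr13:51202727-51203065, away from the other chromosome 13 genes. RNA-Seq was done on EDTA-enriched jejunal intestinal epithelial cells (IEC) of 6 mice aged 3 months. The 3 controls, mice C1, C3 and C3-3, carried the wild-type genotype by their labels. The 3 Hdac1/2-deleted mice, H1, H5 and H9, were villin-Cre Hdac1-/-; Hdac2-/-, with villin-Cre driving the deletion in the intestinal epithelium only. The study's mice had a mixed C57BL/6J, 129SV and CD1 background, and the deletion in these mice was not induced at a chosen time. Enrichment by EDTA can leave other cell types, which keep both genes, in the sample, and fewer cells of a type and less RNA per cell cannot be told apart in these bulk libraries.

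The replication-dependent genes encode the bulk of H1, H2A, H2B, H3 and H4, and are switched on in S phase when new chromatin is built. Their mRNAs are the only metazoan mRNAs that normally end without a poly(A) tail: the transcript is cut after a short stem-loop, which the stem-loop binding protein Slbp holds. Several of these genes can also make a longer, polyadenylated mRNA, which is known from cells that have stopped dividing. The variant genes have introns or poly(A) signals, are expressed through the cell cycle, and supply histones such as H2A.Z, macroH2A and H3.3 to particular places in chromatin. HDAC1 and HDAC2 remove acetyl groups from the tails of all core histones. The libraries were made from poly(A)-selected RNA, so every level below is that of the RNA which poly(A) selection kept, and for the replication-dependent genes it is not the whole mRNA.

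The stem-loop is shown first because it takes the place of the poly(A) tail in these mRNAs. It was searched downstream of the stop codon in the GENCODE M21 transcripts of each gene, as a perfect stem of 6 pairs around a loop of 4 bases. It was found in 36 of the 47 replication-dependent genes, in 8 distinct sequences, of which the most common occurred in 17 genes. In all 25 H1, H2A, H2B and H3 genes with a match the stem began with GGCTC, and in the 11 H4 genes with a match it began with GGCCC in 9 and with GGTCC in 2. The stem-loop, in capitals, is given with 7 bases on either side for a linker gene, an H4 gene and an H2A gene that the results turn on, and for H2afx, the single variant gene with a match; positions are in GRCm38.
Hist1h1c, chr13:23739505-23739534, plus strand: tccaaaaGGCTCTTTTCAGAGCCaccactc
Hist1h4i, chr13:22040959-22040988, minus strand: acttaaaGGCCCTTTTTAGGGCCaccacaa
Hist1h2ag, chr13:22042476-22042505, minus strand: caacaaaGGCTCTTTTCAGAGCCacctaac
H2afx, chr9:44335233-44335262, plus strand: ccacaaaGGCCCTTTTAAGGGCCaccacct
The annotated Hist1h2ag transcript ran 23 bases past its stem-loop, whereas the annotated transcripts of Hist1h4i, H2afx and Hist1h1c ran on for 330, 822 and 840 bases. Among the 36 genes, 15 had an annotated end less than 100 bases after the stem-loop, at most 74 bases, and 21 had a longer extension, from 108 to 4884 bases. No stem-loop of this form was found for the other 11 genes. Of these, 5 had a transcript model that stopped at the stop codon and 2, Hist1h2bh and Hist1h2bm, had no transcript matched by their gene identifier. Hist1h2bc and Hist2h2be were 2 others. Hist1h2bc (chr13:23684199-23692908, plus strand) was annotated with 2 exons, the coding exon of 423 bases and a second exon of 733 bases, all of it untranslated, at chr13:23692176-23692908. Its coding exon ended at 23684621, and the last coding base before the stop codon was at 23684609. Almost none of the genomic sequence just after the stop codon was therefore searched, and the missing match does not show that Hist1h2bc lacks a stem-loop. Hist2h2be (chr3:96221119-96223738, plus strand) had 1 exon with 2192 bases after the stop codon.

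The libraries held 36111035 (H5) to 65902344 (C1) counts, and histone genes took between 0.112% and 0.148% of them in every mouse. Levels are given as CPM, the count of a gene per 1000000 counts of the library, scaled by the trimmed mean of M-values (TMM CPM), on which 3 counts correspond to 0.0405 to 0.0790 CPM in the different mice. Hdac1 had 2592, 1916 and 2596 counts in C1, C3 and C3-3 and 294, 96 and 296 in H1, H5 and H9, and fell by 3.43 on the log2 scale (SE 0.26, edgeR quasi-likelihood test, Benjamini-Hochberg adjusted p = 2.9e-05). Hdac2 was at 27.7 ± 4.72 CPM (SD, n = 3) in controls and 24.5 ± 2.70 (SD, n = 3) in Hdac1/2-deleted mice, with overlapping groups; counts over a whole gene do not show which exons were read, so Hdac2 does not check the labels. Of 15618 genes tested, 12.4% were called higher and 12.7% lower in Hdac1/2-deleted IEC, where called means an adjusted p of at most 0.05 and at least a 2-fold change; with the adjusted p alone the shares were 20.5% and 20.3%. Epithelial markers such as Epcam and Vil1 were high in every mouse, the 10 of them summing to 10600 to 15000 CPM. The 14 leukocyte markers summed to 140 CPM in C1 but 509 and 437 in C3 and C3-3, against 82.4 to 169 in the Hdac1/2-deleted mice. Of the 13 leukocyte markers tested, only Cd3g and Cd8a, of T cells, were called lower and only Csf1r, of macrophages, higher. The 10 stromal markers summed to 44.8, 43.0 and 15.4 CPM in C1, C3 and C3-3 and 19.2 to 31.3 in Hdac1/2-deleted mice. The smooth muscle genes Acta2 and Des were called lower, with C3-3 (0.602 and 0.659 CPM) far below C1 and C3 (11.1 to 14.1), and Pdgfrb, of pericytes, was called higher. The 8 Paneth cell markers summed to 3160 to 5070 CPM in controls and 152 to 235 in Hdac1/2-deleted mice, 7 of 8 being called lower, and none of the markers of these lists was at 0 in all mice. Control C3 stood apart, with a mitochondrial share of 5.72% against 1.45% to 3.77% in the other mice and 3082 counts over 4 Y-linked genes against 1 to 13.

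The replication-dependent genes were low in these libraries apart from a few. Only 18 of the 47 passed the filter on low counts, and 2 genes made up 91.1% of the summed level of the class over the 6 mice: Hist1h1c, a linker histone H1 gene, with 46.5%, and Hist1h2bc, an H2B gene, with 44.6%. Hist2h2be and Hist1h4i followed with 1.68% and 1.66%, and the other 43 genes shared what was left. On a scale corrected for length, CPM per kilobase of exon, Hist1h2bc reached 71.7 in controls and Hist1h1c 43.9, next to 114 for H3f3b, the highest of all histone genes, while Hist1h4i and Hist2h2be reached 1.75 and 1.21. The class as a whole summed to 159, 189 and 137 CPM in C1, C3 and C3-3 and to 77.9, 84.2 and 82.3 in H1, H5 and H9, so that the control mean was 1.99 times the mean of the Hdac1/2-deleted mice and the groups did not overlap. Without Hist1h1c and Hist1h2bc, the other 45 genes summed to 13.1, 10.4 and 8.28 CPM in controls and 9.35, 13.9 and 10.1 in Hdac1/2-deleted mice, which overlapped.

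**Figure D1:**
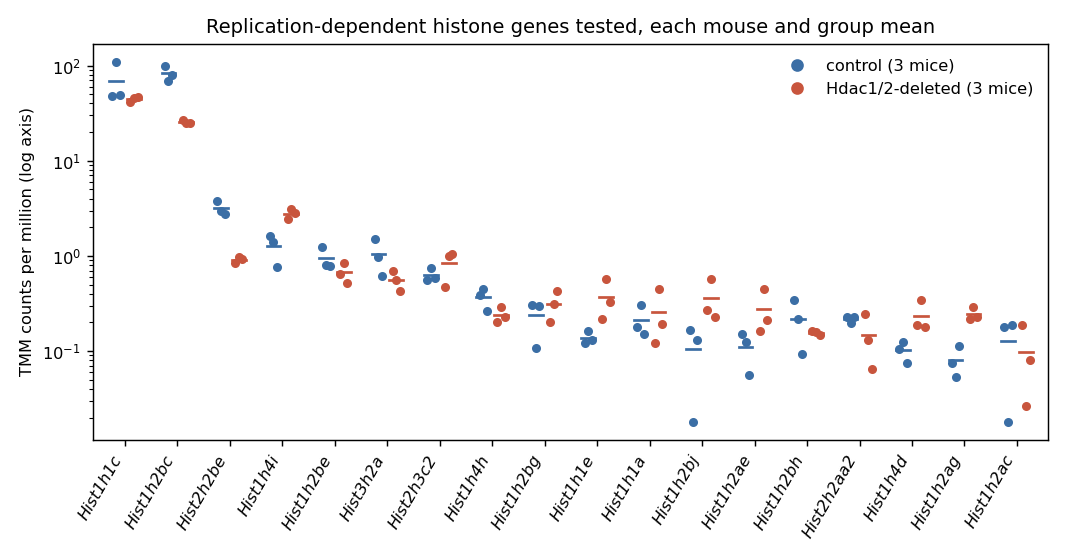
Level of the 18 replication-dependent histone genes that passed the filter, in TMM CPM on a log axis, for each control (blue) and Hdac1/2-deleted (red) mouse, with bars at the group means. Hist1h1c and Hist1h2bc lie far above the other genes, and for Hist1h2bc and Hist2h2be all 3 Hdac1/2-deleted mice lie below all 3 controls.

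The 7 genes of highest level either had more than 100 annotated bases after the stem-loop or no stem-loop match. The 15 genes whose annotated transcript stopped within 100 bases of the stem-loop summed to 1.17 to 1.25 CPM in controls and to 1.61 to 2.76 CPM in Hdac1/2-deleted mice, which did not overlap. The 21 genes with a longer annotated extension summed to 54.3, 115 and 52.6 CPM in controls and 47.6, 54.2 and 54.0 in Hdac1/2-deleted mice, most of it from Hist1h1c, and these groups overlapped. The 11 genes without a stem-loop match summed to 73.2 to 104 CPM in controls and 26.7 to 28.7 in Hdac1/2-deleted mice, nearly all of it from Hist1h2bc. These sums have no test, since the limit of 100 bases was set after the levels were seen and reads of near-identical genes can be shared. Over the 45 genes with a transcript, the share of 100-base windows, the read length, that also occur in another transcript ran from 0% to 100% with a median of 29.8%, against a median of 5.61% over the 14 variant genes.

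**Figure D2:**
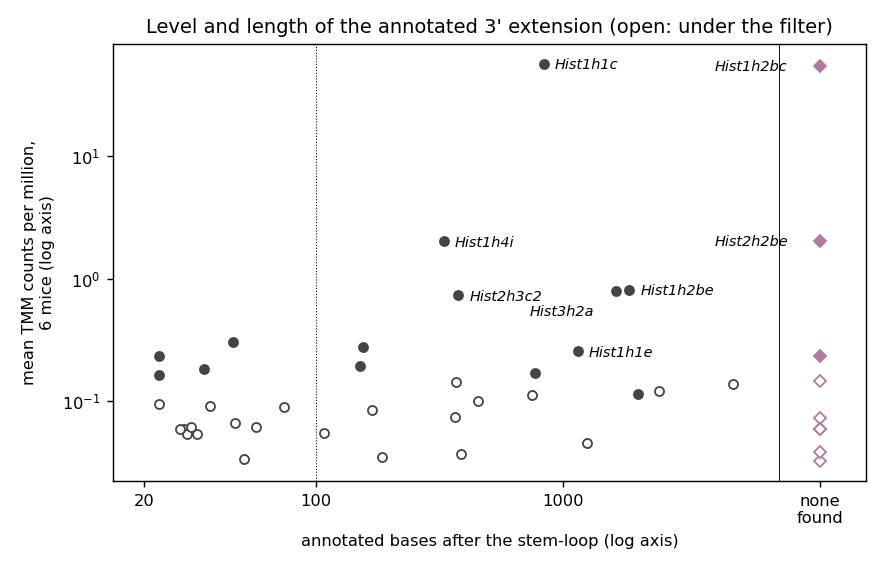
Mean level over the 6 mice, in TMM CPM, against the number of annotated bases after the stem-loop, both on log axes, for 36 replication-dependent genes (circles), with 9 genes in whose transcripts no stem-loop was found at the right (diamonds). The dotted line marks 100 bases and open symbols are genes that did not pass the filter; the 15 genes to its left all have means of at most 0.304 CPM.

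Of the 12 H2B genes, 2 fell and the others were not called. Hist1h2bc had 6553, 3851 and 4272 counts in C1, C3 and C3-3 and 2007, 940 and 1547 in H1, H5 and H9, or 98.9, 69.3 and 80.4 CPM against 27.1, 24.7 and 25.1. The 3 Hdac1/2-deleted mice were close to each other and far below every control. Hist1h2bc fell by 1.69 on the log2 scale, a control level 3.23 times that after deletion (SE 0.16, edgeR quasi-likelihood test, adjusted p = 8.1e-05). Leaving out any 1 mouse gave a log2 fold change between -1.80 and -1.54, with an adjusted p of at most 9.6e-04. Hist2h2be, the H2B gene of the chromosome 3 cluster, had 252, 165 and 146 counts in controls and 63, 37 and 57 in Hdac1/2-deleted mice, again without overlap, and fell by 1.79 (SE 0.29, edgeR adjusted p = 0.0013). Its adjusted p stayed at or below 0.0073 with any mouse left out. These 2 genes were the only replication-dependent genes called lower, of 18 tested (12.7% of all tested genes were called lower), and both were called lower under each alternative tried. Some Paneth cell, T cell and smooth muscle markers were also called lower, as given above. The groups overlapped for the T cell genes Cd3g (9.54 CPM in C1, 10.2 in H9) and Cd8a (18.1 in C1, 18.6 in H9). The part of these cell types in the levels of the 2 H2B genes was not tested.

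The other 10 H2B genes were at or below 1.24 CPM in every mouse. Only 4 of them were tested and none was called. In 4 of the 10, all Hdac1/2-deleted mice lay above all controls, as in 23.5% of all deposited genes, and in the other 6 the groups overlapped. Hist1h2bj, the tested one of these 4, had 11, 1 and 7 counts in controls and 20, 22 and 14 in Hdac1/2-deleted mice (log2 fold change 1.69, SE 0.70, edgeR adjusted p = 0.082). The other 3 did not pass the filter: Hist1h2bb had 1, 4 and 2 counts against 7, 7 and 10, Hist1h2bk 0, 0 and 1 against 9, 5 and 3, and Hist1h2bm 0, 1 and 0 against 4, 8 and 2. These 4 genes were named after their values were seen, and no direction is read from such small counts. Of the 100-base windows of Hist1h2bb, Hist1h2bj and Hist1h2bk, 32.8%, 40.1% and 70.8% occur in other transcripts. Hist1h2be had 82, 45 and 42 counts in controls and 48, 32 and 32 in Hdac1/2-deleted mice (log2 fold change -0.51, SE 0.37, edgeR adjusted p = 0.31), which overlapped. Its annotated span covers part of Hist1h1e on the same strand, so reads of these 2 genes may have been hard to assign. Hist1h2bg had 20, 6 and 16 counts against 15, 12 and 26, and also overlapped (0.39, SE 0.53, edgeR adjusted p = 0.59). Hist1h2bc therefore set the sum of the 12 H2B genes, which was 105, 73.8 and 84.7 CPM in controls and 29.6, 28.2 and 27.8 in Hdac1/2-deleted mice. By this sum the control mean was 3.08 times that of the Hdac1/2-deleted mice.

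The linker histones did not pass the test. Hist1h1c had 3135 counts in C1, 6081 in C3 and 2588 in C3-3, against 3073, 1730 and 2896 in H1, H5 and H9. In CPM this was 47.3, 109 and 48.7 against 41.5, 45.5 and 47.1. The groups did not overlap, but C1 and C3-3 lay just above the Hdac1/2-deleted mice and C3 alone lay far above them. The log2 fold change was -0.62 (SE 0.32, edgeR adjusted p = 0.16), and it was -0.10 (adjusted p = 0.65) without C3, the control with the highest mitochondrial share and the highest leukocyte marker level; the part of these in its Hist1h1c level was not tested. Hist1h1e, another linker gene, was at 8, 9 and 7 counts in controls and 16, 22 and 20 in Hdac1/2-deleted mice, without overlap. Its log2 fold change was 1.39 (SE 0.52) with an edgeR adjusted p of 0.058, which came to 0.033 when libraries were scaled by their totals only and to 0.050 without H1. With a mouse left out the change ranged from 0.96 to 1.68 and the edgeR adjusted p reached 0.19. Hist1h1e was not called with DESeq2 or with either other filter on low counts. It passed the main filter only through the Hdac1/2-deleted mice, its control counts being too low, so its lack of overlap gives no support for a rise.

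Among the H4, H2A and H3 genes, 2 were called higher. Hist1h4i (chr13:22040636-22041362, minus strand) had 108, 78 and 41 counts in controls and 183, 117 and 172 in Hdac1/2-deleted mice. In CPM it was 1.63, 1.40 and 0.772 against 2.47, 3.08 and 2.80, so the lowest Hdac1/2-deleted mouse was above the highest control. It rose by 1.13 on the log2 scale (SE 0.34, edgeR adjusted p = 0.026), although the call was lost without C3-3 (0.88, adjusted p = 0.080), without H5 (1.05, 0.072) and without H9 (1.13, 0.063). Hist1h2ag had 5, 3 and 6 counts in controls and 16, 11 and 14 in Hdac1/2-deleted mice (1.56, SE 0.50, edgeR adjusted p = 0.035). Its control counts were too low for the filter on low counts, so it was tested only through the mice in which it was higher. The groups did not overlap, but these counts are small, 76.2% of its 100-base windows occur in other transcripts, and the call was lost with every mouse left out in turn, at adjusted p values from 0.053 to 0.13, with DESeq2 (1.61, adjusted p = 0.12) and with either other filter on low counts. The 2 calls of 18 tested genes stand against 12.4% of all tested genes called higher. Because of the way Hist1h2ag entered the test, its call gives no support for a rise.

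Hist3h2a, an H2A gene on chromosome 11, had 101, 54 and 33 counts in controls and 51, 21 and 26 in Hdac1/2-deleted mice (log2 fold change -0.90, SE 0.43, edgeR adjusted p = 0.12), and its groups overlapped; it shares its strand and part of its span with Trim17. Hist2h3c2, the H3 gene of highest level, had 37, 41 and 31 counts against 35, 38 and 64 (0.41, SE 0.41, edgeR adjusted p = 0.46). Hist1h4h had 26, 25 and 14 counts against 15, 11 and 14 (-0.64, SE 0.43, edgeR adjusted p = 0.27). Neither of these H3 and H4 genes separated the groups. The 9 H3 genes summed to 0.847 to 1.13 CPM in controls and 1.13 to 2.42 in Hdac1/2-deleted mice, the 12 H4 genes to 1.47 to 2.97 against 3.43 to 4.79, and the 9 H2A genes to 1.32 to 2.28 against 1.17 to 1.95. Hist1h4i alone made up most of the H4 sum, with a mean of 1.27 of 2.34 CPM in controls and 2.78 of 4.02 in Hdac1/2-deleted mice.

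The remaining replication-dependent genes were close to the limit of detection. The 29 that did not pass the filter had between 0 and 21 counts in a mouse, and 14 of them were at 0 in at least 1 mouse. Together they summed to 2.07, 1.73 and 1.03 CPM in controls and 2.05, 3.82 and 2.11 in Hdac1/2-deleted mice, which overlapped. At this depth a difference in most of these genes was not detectable. On the passing side, the genes closest to the filter were Hist1h2ae, with 3 to 17 counts, and Hist1h2bh, with 5 to 23; Hist1h1d, with 3 to 15, and Hist4h4, with 4 to 10, were closest on the other side. Over the 18 tested genes the median log2 fold change was -0.04, against -0.01 over all genes, and 9 of the 18 had groups that did not overlap, against 53.2% of all tested genes. Of these 9, the Hdac1/2-deleted mice were above the controls in 6 and below in 3. Among these 6, Hist1h1e, Hist1h2ae, Hist1h2ag, Hist1h2bj and Hist1h4d passed the filter through the Hdac1/2-deleted mice, their control counts being too low for it. The 9 of 18 and the 6 against 3 were thus partly set by the filter, and no direction is read from them. Among the 29 genes under the filter the Hdac1/2-deleted mice were above the controls in 5 and below in 0. This made 11 above and 3 below of 47, against 23.5% above and 23.7% below of all deposited genes. Apart from Hist1h4i, these 11 genes had counts of 0 to 22, and no test was made of this count. With all 47 genes in the fit and no filter the median was 0.41, so no direction is given for the class by gene. Among RNAs without a poly(A) tail, 39 small nuclear, small nucleolar and related RNAs summed to 3.37 to 4.01 CPM in controls and 3.37 to 5.41 in Hdac1/2-deleted mice. Most are far shorter than the histone transcripts, so this sum does not measure how much histone mRNA without a tail was kept. Of 6 tested, 1 was called higher and 0 lower, against 12.4% and 12.7% of all tested genes. Rpph1 had 4, 1 and 7 counts in controls and 48, 14 and 20 in Hdac1/2-deleted mice (2.67, SE 0.65, edgeR adjusted p = 0.0099). Without H1 the call was lost.

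The variant genes held most of the histone RNA that poly(A) selection kept. Together the 14 genes summed to 1260, 1060 and 1220 CPM in C1, C3 and C3-3 and 1220, 1010 and 1020 in H1, H5 and H9, which overlapped. Of the 13 tested, 1 rose and 3 fell at an adjusted p of at most 0.05, against 20.5% and 20.3% of all tested genes, and only H3f3c also passed the 2-fold limit. In every other tested variant the fitted change was below 2-fold.

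**Figure D3:**
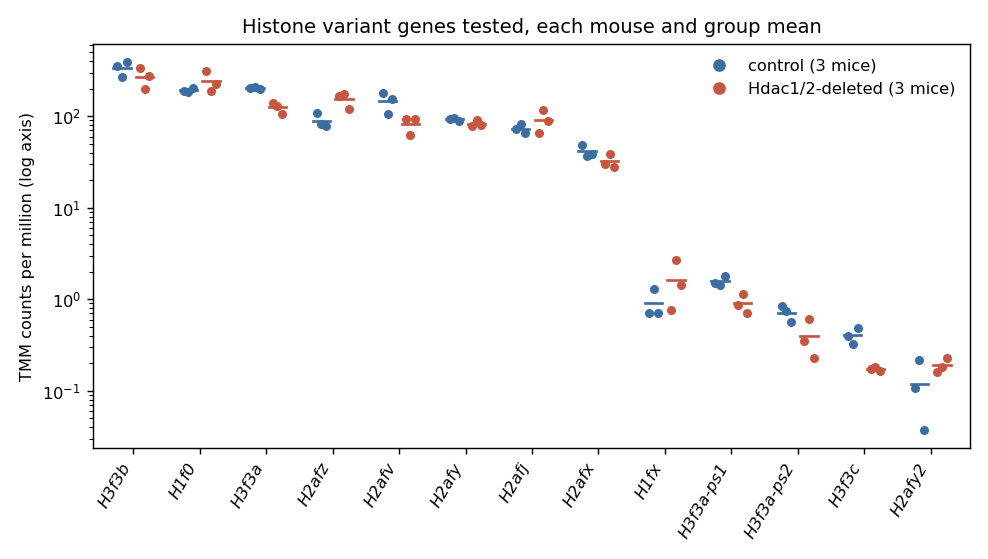
Level of the 13 tested histone variant genes, in TMM CPM on a log axis, for each control (blue) and Hdac1/2-deleted (red) mouse, with bars at the group means. H2afz is higher, and H2afv and H3f3a are lower, in all 3 Hdac1/2-deleted mice than in any control.

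The 2 genes of H2A.Z moved in opposite directions. H2A.Z replaces H2A around promoters and is encoded by H2afz (H2A.Z.1) and H2afv (H2A.Z.2), whose proteins are nearly the same. H2afz (chr3:137864487-137866922, plus strand) was at 109, 81.4 and 77.8 CPM in C1, C3 and C3-3 and at 165, 175 and 119 in H1, H5 and H9. Every Hdac1/2-deleted mouse was above every control, H9 by the smallest margin. H2afz rose by 0.78 on the log2 scale, 1.71-fold (SE 0.19, edgeR adjusted p = 0.011), and stayed at an adjusted p of at most 0.046 with any mouse left out. H2afv (chr11:6427229-6444443, minus strand) was at 181, 106 and 155 CPM in controls and 94.1, 62.4 and 93.3 in Hdac1/2-deleted mice, and C3 was the control closest to the deleted mice. It fell by 0.82 (SE 0.23, edgeR adjusted p = 0.020). That p rose above the limit of 0.05 without C1 (-0.64, adjusted p = 0.054), without C3-3 (-0.78, 0.055), without H5 (-0.65, 0.069) and with library totals only (-0.64, 0.076), so the decrease of H2afv rests on the full set of mice and on the scaling.

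The ratio of H2afz to H2afv counts does not depend on the scaling of the libraries. It was 0.600, 0.769 and 0.503 in C1, C3 and C3-3 and 1.75, 2.81 and 1.28 in H1, H5 and H9, so that H2afv had more counts in every control and H2afz in every Hdac1/2-deleted mouse. The log2 ratio differed by 1.59, with a two-sided exact permutation p of 0.10, the smallest that 3 against 3 mice can give; this pair was chosen after its levels were seen. The sum of both genes was 237 ± 51.8 CPM (SD, n = 3) in controls and 236 ± 23.3 (SD, n = 3) in Hdac1/2-deleted mice.

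The promoters of both H2A.Z genes are shown because their transcripts moved apart. The sequences are those of RefSeq on GRCm38.p6, from 250 bases before to 50 bases after the annotated start, with each CCAAT box on either strand in capitals.
H2afz promoter, chr3:137864237-137864536, plus strand: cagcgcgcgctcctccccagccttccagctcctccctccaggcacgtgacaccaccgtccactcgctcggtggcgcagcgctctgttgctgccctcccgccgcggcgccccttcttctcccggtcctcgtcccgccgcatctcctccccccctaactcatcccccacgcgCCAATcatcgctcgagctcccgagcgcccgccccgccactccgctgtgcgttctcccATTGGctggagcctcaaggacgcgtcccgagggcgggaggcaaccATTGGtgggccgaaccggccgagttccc
H2afv promoter, chr11:6444394-6444693, minus strand: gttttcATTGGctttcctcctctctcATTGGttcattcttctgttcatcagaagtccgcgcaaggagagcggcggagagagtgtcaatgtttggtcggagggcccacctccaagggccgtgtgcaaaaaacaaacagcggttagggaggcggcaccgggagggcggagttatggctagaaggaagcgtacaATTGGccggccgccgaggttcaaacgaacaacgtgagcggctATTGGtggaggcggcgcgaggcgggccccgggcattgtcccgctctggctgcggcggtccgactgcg
Both windows hold several such boxes, and neither holds a TATA box match. The CCAAT box occurred in 37.4% of the 32851 promoters of the table.

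H3.3, the H3 variant laid down outside S phase, is also made from a pair of genes that encode the same protein. H3f3a (chr1:180800832-180813943, minus strand) was at 205, 208 and 200 CPM in controls, which lay very close together, and at 141, 131 and 106 in Hdac1/2-deleted mice. No mouse overlapped. H3f3a fell by 0.69, the control level being 1.62 times that after deletion (SE 0.15, edgeR adjusted p = 0.0050; at most 0.025 with any mouse left out). H3f3b was at 358, 268 and 388 CPM in controls and 333, 199 and 276 in Hdac1/2-deleted mice, with overlap (-0.33, SE 0.22, edgeR adjusted p = 0.26). The difference between the 2 genes was not shown: the H3f3a to H3f3b count ratio was 0.573, 0.778 and 0.514 in controls and 0.424, 0.661 and 0.385 in Hdac1/2-deleted mice (exact permutation test, two-sided, p = 0.30). Their summed level was 563, 476 and 588 CPM against 474, 330 and 383, the highest Hdac1/2-deleted mouse, H1, lying just below the lowest control, C3.

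The 3 low-count H3.3 genes are listed by GENCODE as processed pseudogenes. H3f3c had 26, 18 and 26 counts in controls and 13, 7 and 10 in Hdac1/2-deleted mice, the only variant called lower (-1.20, SE 0.42, edgeR adjusted p = 0.046). The call was lost under each of the 10 alternatives, at adjusted p values from 0.067 to 0.16, and 56.7% of the 100-base windows of H3f3c occur in other transcripts. H3f3a-ps1 had 101, 80 and 95 counts against 64, 43 and 44 (-0.82, SE 0.33, edgeR adjusted p = 0.074) and H3f3a-ps2 had 56, 41 and 30 against 26, 23 and 14 (-0.89, SE 0.45, edgeR adjusted p = 0.15). Reads of H3f3a or H3f3b could be counted under these copies, so their values are uncertain. H3f3aos, annotated on the opposite strand of H3f3a, had 0 to 5 counts and did not pass the filter.

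The remaining variants did not pass the test. H1f0, the linker histone of differentiated cells, was at 187, 182 and 206 CPM in controls and 314, 191 and 226 in Hdac1/2-deleted mice, where H1 alone was far above the controls (0.35, SE 0.19, edgeR adjusted p = 0.18). H2afx, the histone phosphorylated at DNA breaks, was at 48.9, 36.8 and 39.1 CPM against 30.1, 38.5 and 27.6, with H5 within the controls (-0.37, SE 0.18, edgeR adjusted p = 0.12). H2afy, which encodes macroH2A1, was at 93.8, 95.9 and 87.9 CPM against 77.9, 90.2 and 81.2 (-0.15, SE 0.13, edgeR adjusted p = 0.35; 0.03 with library totals only). H2afj was at 72.3, 81.4 and 65.9 CPM against 66.0, 116 and 88.8 (0.30, SE 0.20, edgeR adjusted p = 0.27). H1fx had 47, 72 and 38 counts against 57, 102 and 89 (0.83, SE 0.49, edgeR adjusted p = 0.21), and H2afy2, the macroH2A2 gene, 7, 12 and 2 against 12, 7 and 14 (0.66, SE 0.62, edgeR adjusted p = 0.42). In each of these 6 genes the groups overlapped.

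**Figure D4:**
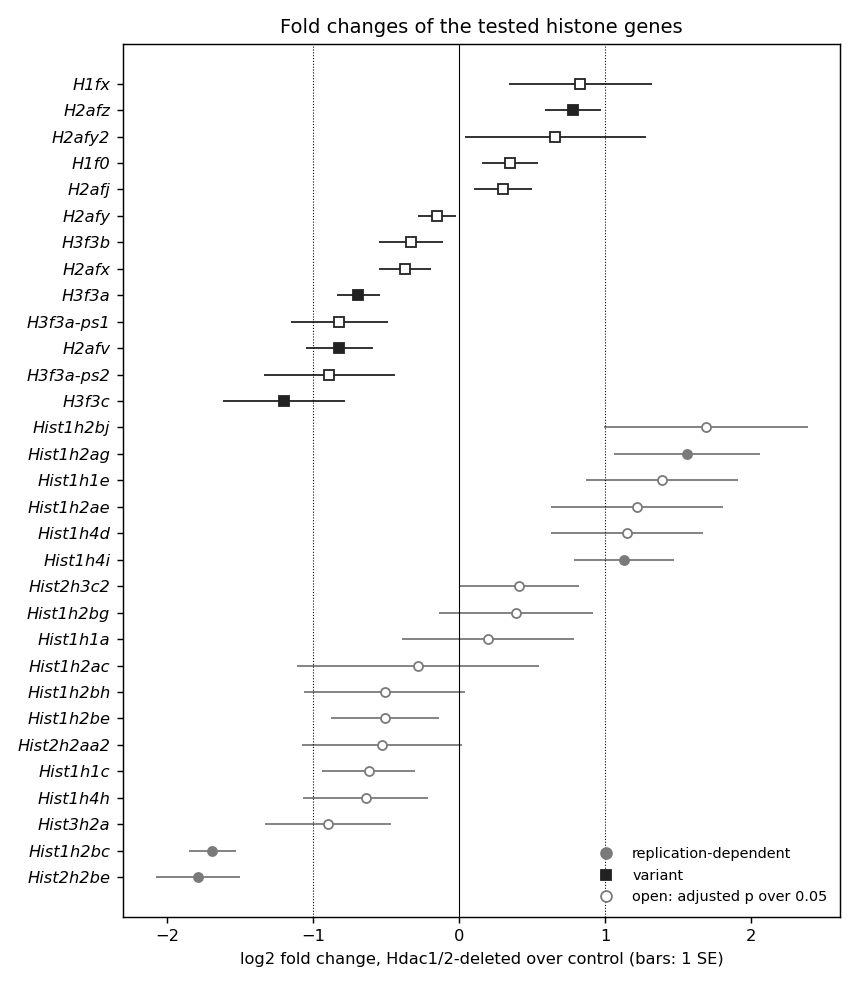
Log2 fold change of the 31 tested histone genes in Hdac1/2-deleted over control IEC with 1 SE, variants as squares and replication-dependent genes as circles, filled where the adjusted p was at most 0.05 and with dotted lines at 2-fold. Hist2h2be and Hist1h2bc lie at -1.79 and -1.69, and the other replication-dependent genes, most of them with low counts, have the longer error bars.

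CENP-A, the H3 variant of centromeres, lies outside the symbols used here and showed a larger change than any variant gene above. Cenpa was at 15.4, 9.18 and 11.9 CPM in C1, C3 and C3-3 and at 48.5, 42.4 and 44.1 in H1, H5 and H9. It rose by 1.89 on the log2 scale (SE 0.20, edgeR adjusted p = 1.5e-04; at most 0.0011 with any mouse left out). Its chaperone gene Hjurp ranged from 53.7 to 132 CPM in controls and from 46.9 to 107 in Hdac1/2-deleted mice (0.03, SE 0.44, edgeR adjusted p = 0.97).

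Genes that turn on, process and degrade histone mRNAs came next. Of 24 tested, 0 were called higher and 2 lower, with 8 higher and 2 lower at the adjusted p alone and a median log2 fold change of 0.31 (-0.01 over all genes). Over all tested genes the shares called were 12.4% higher and 12.7% lower, and 20.5% and 20.3% at the adjusted p alone. The 0 called higher became 2 with library totals only or without C1 and 1 with DESeq2, whereas the 2 called lower were 2 under each alternative. Mif4gd, which encodes the SLBP-interacting protein that links the stem-loop to translation, was at 55.8, 44.6 and 33.1 CPM in controls and 18.3, 20.6 and 16.4 in Hdac1/2-deleted mice, and fell by 1.27 (SE 0.20, edgeR adjusted p = 0.0013). Zcchc11, a terminal uridylyltransferase, was at 4.88, 5.15 and 7.13 CPM against 2.46, 1.55 and 1.64 and fell by 1.60 (SE 0.29, edgeR adjusted p = 0.0026). In both the groups were apart. Npat, the coactivator that drives histone transcription in S phase, was at 7.68, 5.94 and 5.44 CPM against 11.7, 9.40 and 9.90 (0.70, SE 0.21, edgeR adjusted p = 0.027), a change below 2-fold that missed the limit without C3, C3-3, H1 or H9, at adjusted p values from 0.056 to 0.097. Other members higher at the adjusted p alone included Sympk, the scaffold of the 3′ end cleavage complex (0.75, edgeR adjusted p = 0.0055), and Cpsf3, its nuclease (0.60, 0.0066). Slbp itself was at 29.9, 23.6 and 24.0 CPM in controls and 32.0, 21.9 and 21.3 in Hdac1/2-deleted mice, with overlap (-0.04, SE 0.20, edgeR adjusted p = 0.88), and its sign changed with library totals only (0.15).

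Among 26 genes of histone chaperones and deposition, 3 were called higher and 0 lower, with 7 higher and 1 lower at the adjusted p alone and a median of 0.21. The shares over all tested genes were 12.4% higher and 12.7% lower, and 20.5% and 20.3% at the adjusted p alone. The 3 became 1 without C3, 2 without C3-3, H1 or H5, and 6 without C1, without H9 or with library totals only. Ipo4, an importin that carries H3 and H4 into the nucleus, was at 21.1, 19.9 and 15.6 CPM in controls and 61.8, 76.0 and 53.7 in Hdac1/2-deleted mice, and rose by 1.76 (SE 0.18, edgeR adjusted p = 1.3e-04). Chaf1b, a subunit of the CAF-1 complex that loads new H3 and H4 behind the replication fork, was at 8.23, 5.24 and 6.76 CPM against 14.6, 17.3 and 10.3 and rose by 1.06 (SE 0.25, adjusted p = 0.0095 by edgeR). Rbbp7, a histone-binding protein also found in HDAC1 and HDAC2 complexes, was at 75.7, 61.2 and 58.5 CPM against 138, 139 and 114 and was called higher (SE of the log2 fold change 0.15, adjusted p = 0.0010 by edgeR). In these 3 genes all Hdac1/2-deleted mice were above all controls. The call of Ipo4 held with any mouse left out. Rbbp7, which stood at the 2-fold limit, came to 0.96, 0.94, 0.96 and 0.96 without C3, C3-3, H1 and H5 and lost its call there, and Chaf1b came to 0.91 without C3 and 0.89 without H5, while the adjusted p of both stayed at or below 0.039. Chaf1a, the partner of Chaf1b, overlapped (0.24, SE 0.19, edgeR adjusted p = 0.35), as did Hira, the chaperone of H3.3 (0.19, SE 0.16, edgeR adjusted p = 0.37). On the H2A.Z side, Anp32e, which removes H2A.Z from chromatin, was at 39.4, 27.2 and 31.0 CPM against 62.6, 73.9 and 55.1 (0.97, SE 0.18, edgeR adjusted p = 0.0026), and Srcap, the motor that exchanges it in, at 8.17, 7.15 and 8.62 against 4.63, 5.08 and 4.68 (-0.73, SE 0.20, edgeR adjusted p = 0.017). Both passed the adjusted p but not the 2-fold limit, were chosen after their values were seen, and Srcap reached an adjusted p of 0.077 with a mouse left out. Ep400 (0.13, SE 0.12, edgeR adjusted p = 0.40) and Vps72 (-0.33, SE 0.12, edgeR adjusted p = 0.051), also of H2A.Z exchange, did not pass the adjusted p.

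**Figure D5:**
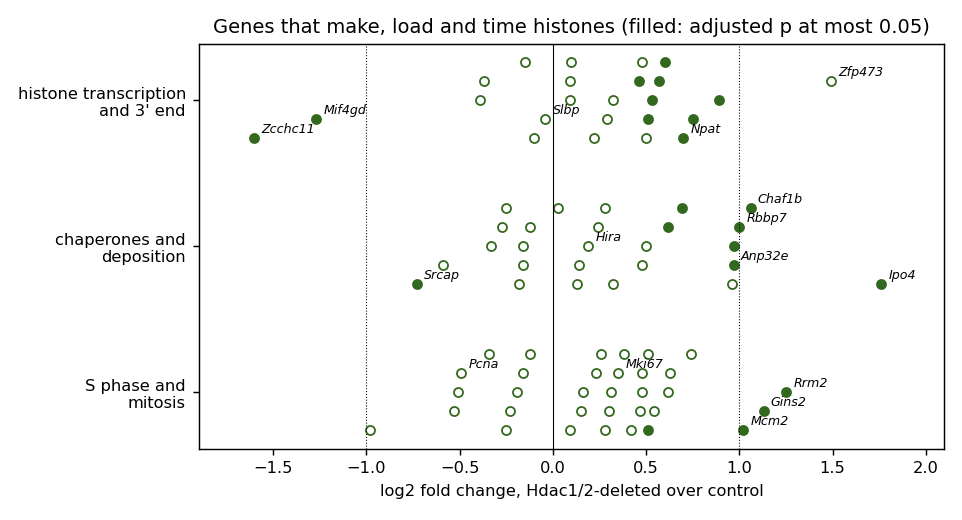
Log2 fold change in Hdac1/2-deleted over control IEC of the genes of histone transcription and 3′ end formation, of histone chaperones and deposition, and of S phase and mitosis, spread vertically for legibility. Filled points had an adjusted p of at most 0.05 and dotted lines mark 2-fold; Mif4gd (-1.27) and Zcchc11 (-1.60) stand at the left and Ipo4 (1.76) at the right.

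S phase genes were read because replication-dependent histone mRNAs are made in that phase. Of 33 genes of S phase and mitosis, 3 were called higher and 0 lower, with 4 higher and 0 lower at the adjusted p alone and a median log2 fold change of 0.30; over all tested genes 12.4% were called higher and 20.5% were higher at the adjusted p alone. The count called higher was 0 without C3, C3-3, H1 or H5 and 3 without C1 or H9, and the median ranged from 0.12 to 0.55 with a mouse left out. Their sum was 935, 577 and 648 CPM in C1, C3 and C3-3 and 991, 977 and 605 in H1, H5 and H9, so that the groups overlapped. Mcm2, a subunit of the replicative helicase, was at 29.9, 16.2 and 20.3 CPM against 46.4, 52.9 and 35.3 and rose by 1.02 (SE 0.25, edgeR adjusted p = 0.010), with all Hdac1/2-deleted mice above all controls. Without C3, C3-3, H5 or H1 its change was 0.84, 0.97, 0.89 or just under 2-fold, so the call was lost while the adjusted p stayed at or below 0.042. Gins2 (1.13, edgeR adjusted p = 0.026) and Rrm2, a ribonucleotide reductase subunit (1.25, adjusted p = 0.030 by edgeR), whose groups overlapped, each lost the call in 4 of the 6 fits with a mouse left out, without C3, C3-3, H1 or H5, at adjusted p values from 0.060 to 0.10. Mki67, which marks cycling cells, was at 110, 69.6 and 85.2 CPM against 122, 134 and 82.3 (0.35, SE 0.22, edgeR adjusted p = 0.24). Pcna, the sliding clamp, was at 66.9, 46.4 and 44.4 CPM against 49.5, 34.4 and 28.7 (-0.49, SE 0.24, edgeR adjusted p = 0.13). Neither separated the groups.

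The promoters of the histone genes shared elements by type. A RefSeq promoter was matched for 39 of the replication-dependent genes and 10 variants. None was matched for Hist1h2bc or Hist2h2be, the replication-dependent genes called lower, so the counts below leave them out. A CCAAT box (either strand) was found in 31 of the 39, in every H1, H2A, H2B and H3 gene but in 3 of 11 H4 genes. A match to TATAAA occurred in 22 of the 39, against 13.6% of all promoters. The octamer ATGCAAAT occurred in 8 of the 39, 4 of 8 H2A and 4 of 8 H2B genes, against 1.74% of all promoters. The H1 element AAACACA was found in 4 of 5 H1 genes and in no other of the 39, against 7.18% of all promoters. A match to either E2F motif, TTTCGCGC or TTTGGCGC, was found in 4 of the 39, against 0.813% of all promoters. Some H2A and H2B genes lie head to head and share a promoter window, so these counts are not independent. The windows of Hist1h1c, the cluster gene of highest mean level over all mice, and of Hist1h4i, which rose, are given as examples, with the matches in capitals.
Hist1h1c promoter, chr13:23738557-23738856, plus strand: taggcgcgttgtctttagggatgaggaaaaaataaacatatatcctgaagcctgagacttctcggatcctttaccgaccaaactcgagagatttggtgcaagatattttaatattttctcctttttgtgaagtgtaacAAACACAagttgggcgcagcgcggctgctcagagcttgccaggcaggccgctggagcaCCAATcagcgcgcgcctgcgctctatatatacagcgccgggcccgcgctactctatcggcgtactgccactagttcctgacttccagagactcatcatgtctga
Hist1h4i promoter, chr13:22041313-22041612, minus strand: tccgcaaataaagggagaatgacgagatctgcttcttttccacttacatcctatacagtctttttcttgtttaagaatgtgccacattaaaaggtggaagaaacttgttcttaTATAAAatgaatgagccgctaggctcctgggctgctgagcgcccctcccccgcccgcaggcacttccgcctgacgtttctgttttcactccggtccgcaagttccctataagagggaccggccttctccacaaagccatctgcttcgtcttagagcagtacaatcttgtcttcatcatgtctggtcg
The Hist1h1c window holds the H1 element and a CCAAT box, and the Hist1h4i window holds TATAAA far upstream of the start and no CCAAT box. A match to these letters is a description of the sequence and says nothing of which factor was bound in these cells.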

How the data were processed

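Counts from 3 controls were compared with those from 3 Hdac1/2-deleted mice. Each mouse is 1 library, and groups follow the labelled genotype. Per the labels and the study's methods, libraries were poly(A)-selected and directional, from RNA with an integrity number above a set limit, and were sequenced as paired reads of 100 bases on an Illumina HiSeq4000. The submitters' processing notes name bcl2fastq 1.8.4, STAR 2.4.0f1 and the build mm9, whereas the methods name GRCm38; the counting program, its annotation and its use of strand are not given in the sources used here. The authors deposited raw read counts per gene, which were used as they stand; columns with the authors' scaled counts, fold changes, log CPM and p-values were not used. Coordinates, transcripts and stem-loops come from GENCODE M21 and promoters from RefSeq, both on GRCm38, matched by gene identifier; promoters were matched for 49 of the 61 genes.

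Counts were tested in edgeR 4.0.16 (R 4.3.3) with filterByExpr, TMM scaling and the robust quasi-likelihood F test, with Benjamini-Hochberg adjustment over the 15618 genes that passed of 19616. A call needed both an adjusted p no higher than 0.05 and 2-fold or more between groups. The SE is the size of the log2 fold change divided by the square root of F. The fit was tested on simulated counts. Alternatives were scaling by library totals only, DESeq2 1.42.0, no filter, a minimum of 10 counts in 1 mouse, no fold limit, and leaving out each mouse. Figures were drawn with Python 3.11.15 and matplotlib 3.10.9. Genes named are every tested variant, each replication-dependent gene called or among the 10 of highest level, Hdac1, Hdac2, called genes of the 3 pathway lists, and Slbp, Npat, Mki67, Pcna, Chaf1a, Hira and Cenpa; a few others are named where stated, and Hjurp, Sympk and Cpsf3 were picked after their values were seen. The members and lists were chosen with earlier results of these data known. Where several transcripts of a gene were annotated, one with a stem-loop and then the longest was taken. The stem-loop search required GG, then C or T at each of the next pair of positions, then CT, a loop of 4 bases with alternate bases T, starting from its 5′ end, and the reverse complement of the stem.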

Additional observations from a re-analysis of the deposited data

How the results depend on the processing

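Library totals of 36111035 to 65902344 counts limit the low members most: 29 of 47 replication-dependent genes did not pass the filter. The SEs come from the edgeR fit, which takes in the spread between mice, with only 3 mice in each group. The RNA was poly(A)-selected, so levels of genes whose mRNAs can end in a stem-loop cover only the RNA that selection kept. No paired analysis was made because the sample labels record no pairing between control and Hdac1/2-deleted mice. Over 41 named genes and 10 alternatives that gave a gene value, 363 of 410 values kept their direction and their side of the adjusted p limit, 38 lost it, 3 gained it and 6 changed sign. By the whole rule for a call, with the 2-fold limit, 367 of 410 were unchanged, 40 lost the call and 3 gained it. Those that changed sign were H2afy (0.03) and Hdac2 (0.01) with library totals only, and Slbp with library totals only (0.15) and without C1, H5 or H9 (with a mouse left out it ranged from -0.26 to 0.08). Library totals only moved the median log2 fold change of all genes from -0.01 to 0.18, with 2463 genes called higher and 1538 lower, 61.6% of calls being higher against 49.4% with TMM.

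With no fold limit, 3198 genes were called higher and 3168 lower, against 1944 and 1990; in the same setting 1 variant was called higher and 3 lower, against 0 and 1. The replication-dependent genes called higher went from 2 to 1 with DESeq2 and to 1 with the minimum of 10 counts in 1 mouse, and ranged from 0 (without C3-3 or H5) to 3 (without H1) with a mouse left out. The genes counted changed too. With no filter they were Hist1h4i and Hist1h2bk, without C3 Hist1h4i and Hist1h3a, without H1 Hist1h4i, Hist1h1e and Hist1h3a, and without H9 Hist1h3e alone; Hist1h2bk, Hist1h3a and Hist1h3e had at most 16 counts in a mouse. The variant called lower was lost, to 0, with library totals only, DESeq2, no filter or the minimum of 10 counts in 1 mouse, and with a mouse left out the count ranged from 0 to 1. In that last case, without C3, the gene was H2afv (-1.01) and not H3f3c. The 2 replication-dependent genes called lower, Hist1h2bc and Hist2h2be, were called under every alternative. The cause of these changes was not tested.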
